A study of Rattus norvegicus with 6 samples.

Results

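Amino acid and peptide transporter genes were examined in rat kidney as a list of 35 genes from the SLC1, SLC3, SLC6, SLC7, SLC15, SLC16, SLC36, SLC38 and SLC43 families, each found on the array by matching a probe's RefSeq accession to the gene. Of the 35 genes, 34 had a named probe, with 41 probes in all, and 27 were bright enough to be tested among 17892 features. The arrays measured total kidney RNA in 3 samples from rats given Bailing Capsule, a fermented Cordyceps preparation, and 3 samples from diabetic rats, all at 21 weeks. The labels give no dose, strain or sex and no means by which diabetes was induced, do not say whether the treated rats were diabetic, and name no untreated group among the samples analysed here. The series asks how the preparation affects gene expression in the kidney.

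The kidney filters free amino acids and small peptides and takes nearly all of them back in the proximal tubule. Carriers of the luminal membrane bring them into the cell, many with sodium or protons, and exchangers and facilitators of the basolateral membrane pass them on to the blood. Several exchangers are pairs of a light chain, which carries the amino acid, and a heavy chain, which brings the pair to the membrane, and other carriers supply amino acids for the cell's own use or hold taurine, betaine and creatine inside it.

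Levels are log2 spot intensities after background subtraction, minus the 75th percentile of the array, so 0 is the 75th percentile and each step of 1 is a doubling. They are compared between groups for a gene and never between genes, since probes differ in brightness for the same amount of RNA. Differences are Bailing Capsule minus diabetic, tested with limma over all features, and a gene is called at a Benjamini-Hochberg adjusted p under 0.05. The replicates are labelled as separate samples and nothing more is said of them, so a p-value here speaks only of how these samples varied, which may be technical variation. In whole tissue, fewer cells of a type and less RNA per cell cannot be told apart.

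Each array held 30367 probes, of which 64.55% to 73.46% were well above background, and pairs of arrays correlated at 0.966 to 0.992 across the tested features with 6 values. The scan times in the file headers put the arrays in 2 sets, taken here as 2 slides. The Bailing Capsule arrays and 1 diabetic array, replicate 1, were on slide 1, and the remaining diabetic arrays on slide 2. All 20 proximal tubule markers examined were well above background on all arrays of at least 1 group, as were 6 of 7 markers of the thick limb and distal tubule, 11 of 11 of the collecting duct and 6 of 6 of podocytes.

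A single transporter gene passed the test, and its call was lost with slide as a block and in 4 of the 6 fits that left out an array. Slc7a12, a light-chain carrier of small neutral amino acids that is known from mouse kidney, was 3.36-fold higher in Bailing Capsule kidneys (95% interval 2.29 to 4.93). The other 26 tested genes did not pass the test. The called share was thus 3.70% of the tested transporter genes, against 0.319% of all features. It rests on 1 gene. In Slc38a4, Slc6a6 and Slc15a1 all 3 Bailing Capsule values lay below the 3 diabetic values, and in Slc7a12, Slc7a7 and Slc15a2 all lay above them. Groups did not overlap for 6 of the 27 genes, or 22.2%, against 11.6% of all features with a value on every array. At an unadjusted p under 0.05 there were 3 genes, or 11.1%, against 7.56% of all features.

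Across the 27 genes 8 differences were positive and 19 negative, with a median of -0.08 on the log2 scale, against a median of -0.09 over all features, of which 37.9% were positive. The 95% interval of the difference held 0 for 24 genes, and for 14 genes it lay within 1 log2 unit of 0 on both sides. The group median by role was -0.11 for luminal carriers, -0.01 for basolateral and exchange carriers, -0.18 for carriers of cell supply and -0.25 for carriers of taurine, betaine, creatine and glycine. With slide as a block these medians were 0.07, 0.18, 0.07 and 0.11 in the same order, so no direction is given for the groups.

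**Figure D1:**
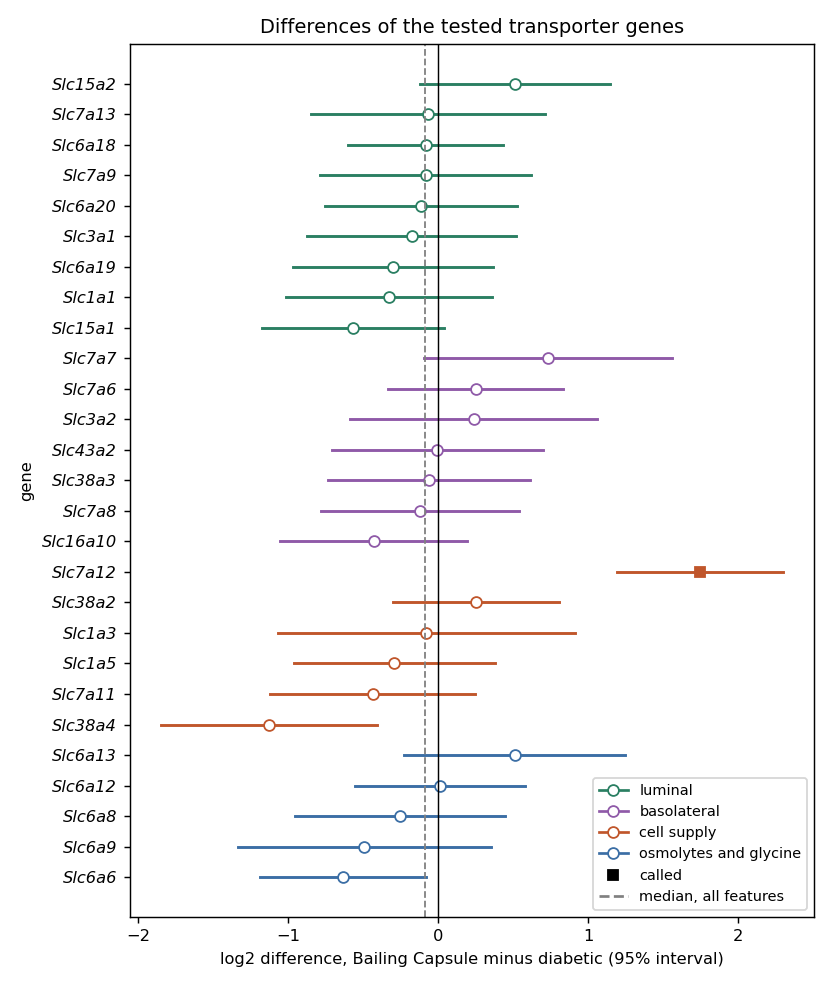
Log2 difference of each of the 27 tested transporter genes, Bailing Capsule minus diabetic, with its 95% interval from limma, grouped by role on the y axis. The filled square marks Slc7a12 at 1.75, the called gene, open circles mark genes that were not called, and the dashed line is the median of all features at -0.09.

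The promoters of the genes with the largest differences in each direction, Slc7a12 and Slc38a4, are shown from RefSeq on build GRCr8, from 250 bases before to 50 bases after the annotated start, in the direction of transcription. The Slc7a12 window lies on the minus strand at chr2:88868054-88868353 and has a GC content of 33%. The Slc38a4 window lies on the minus strand at chr7:130082120-130082419 and has a GC content of 52%, and the median over all 33469 windows was 51.7%. Capitals mark the motifs found on either strand: GTTAAT, from the site of the tubular and hepatic factor HNF1, and TATAAA, the TATA box, in the Slc7a12 window, and TGGAAA, the core of the tonicity element, in the Slc38a4 window.
Slc7a12: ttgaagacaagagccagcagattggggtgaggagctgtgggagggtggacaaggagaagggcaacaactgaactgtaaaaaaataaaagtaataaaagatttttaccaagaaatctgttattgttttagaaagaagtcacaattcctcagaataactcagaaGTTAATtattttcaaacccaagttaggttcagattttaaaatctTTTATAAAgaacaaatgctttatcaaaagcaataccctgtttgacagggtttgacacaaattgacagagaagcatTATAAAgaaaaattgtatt
Slc38a4: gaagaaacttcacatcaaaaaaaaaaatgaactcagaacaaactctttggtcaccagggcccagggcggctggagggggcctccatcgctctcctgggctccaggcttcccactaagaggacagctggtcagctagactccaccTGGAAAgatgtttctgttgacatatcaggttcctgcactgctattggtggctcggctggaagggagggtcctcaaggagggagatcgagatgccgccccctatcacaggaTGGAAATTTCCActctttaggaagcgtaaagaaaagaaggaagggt

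In the Slc7a12 window GTTAAT began 88 bases before the start. TATAAA began 42 bases before the start, overlapping a copy on the other strand that began at 44, and again 32 bases after it. In the Slc38a4 window TGGAAA began 106 bases before and 5 bases after the start, and the second copy was followed at once by a reverse copy that began 11 bases after the start. GTTAAT was present in 7.45% of all windows and in 3 of the 29 transporter windows in the table, and TATAAA in 14.2% of all and in 5 of the 29. TGGAAA was present in 22.7% of all and in 8 of the 29. Searched in the same way, TGATGNAA, the C/EBP-ATF element of the amino acid response, was present in 3.98% of all and in 3 of the 29, in Slc38a1, Slc7a1 and Slc1a4. AGGTCA, bound by nuclear receptors, was present in 16.2% of all and in 4 of the 29. The motifs were chosen with results of these data known, and a match is a description of the letters only.

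The carriers of cell supply held the called gene. Slc7a12 had levels of 1.08, 1.10 and 1.55 on the Bailing Capsule arrays, against -0.51, -0.53 and -0.46 on the diabetic arrays. The Bailing Capsule arrays were all above the 75th percentile of their array and the diabetic arrays all below it, with no overlap. The mean level was 1.25 ± 0.27 in Bailing Capsule kidneys and -0.50 ± 0.04 in diabetic kidneys (SD, n = 3 each). The log2 difference was 1.75 (SE 0.25, 95% interval 1.19 to 2.30, limma adjusted p = 0.0176), the 34th smallest p of all features. Its single probe had 1 spot per array, so no second probe of the gene bears on the value.

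The size of the Slc7a12 difference was much the same under other processing, and the call was not. With a single probe, changing the filter or the probes per gene could not move the difference. Nor could the replicate block, which is balanced between the groups, or the variance model, which changes the error only. The log2 difference ran from 1.43 with normexp background correction to 1.84 in the deposited values, and 10 of 18 alternatives called it, with limma adjusted p-values of 0.00344 to 0.416 over all 18. The call was lost when Bailing Capsule replicate 2 or 3 or diabetic replicate 2 or 3 was left out, with differences of 1.82, 1.59, 1.73 and 1.77, and held without either replicate 1. With slide as a block it was 1.76 (limma adjusted p = 0.117), a value equal to that within slide 1, where it rests on diabetic replicate 1 alone, and 0.218% of all features were called. No transporter gene was called with that block.

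**Figure D2:**
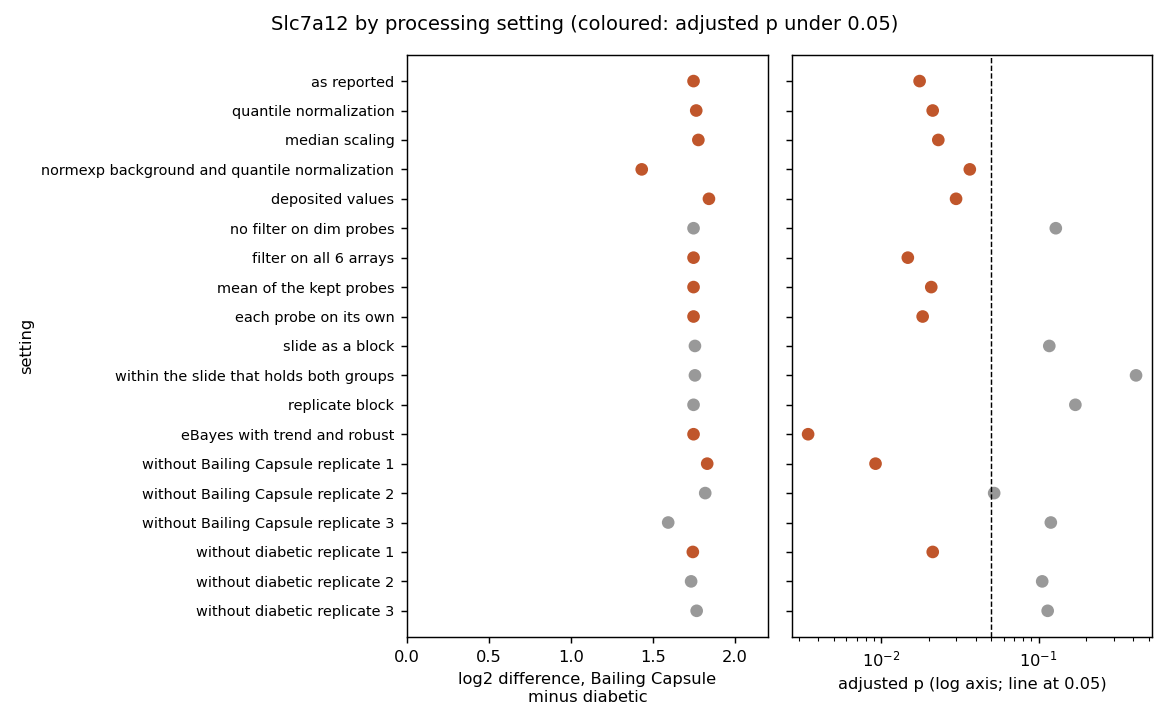
Slc7a12 under each processing setting, with the log2 difference, Bailing Capsule minus diabetic, on the left and the limma adjusted p on a log axis on the right. Coloured points were called and grey points were not. The difference stays between 1.43 and 1.84 while the adjusted p lies on both sides of the dashed line at 0.05.

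In mouse kidney Slc7a12 is known as a transcript that differs between females and males, and whether the groups here differed in sex was not tested. All 4 red cell and platelet markers also had positive differences, with none called and a median log2 difference of 0.76. Their summed linear levels, almost all from Hbb-b1 and Hba-a1, were 90.7 to 169 in Bailing Capsule kidneys and 62.1 to 114 in diabetic kidneys. Of 11 collecting duct markers 8 had positive differences, with a median of 0.15. Slc26a4, Atp6v1g3, Atp6v0d2, Foxi1 and Slc4a1 lay at 0.52 to 1.68, and Scnn1g, Scnn1b and Avpr2 at 0.12 to 0.15. The negative ones were Aqp3, Aqp2 and Aqp4, at -0.84, -0.48 and -0.34. Summed levels of the markers, with Aqp2 the largest part, were 82.1 to 115 in Bailing Capsule kidneys and 93.4 to 147 in diabetic kidneys. Slc26a4, the chloride-bicarbonate exchanger pendrin of beta intercalated cells, was the called marker among them, with a log2 difference of 1.68 (limma adjusted p = 0.0455), a call that was lost with slide as a block (1.87, limma adjusted p = 0.129). Podocyte markers had 5 of 6 positive differences and a median of 0.27. Thick limb and distal tubule markers had 4 of 6 and a median of 0.28, and none in either list was called. Other marker lists had negative medians, with none called: proximal tubule (-0.33), endothelium (-0.28), stroma and smooth muscle (-0.15), leukocytes (-0.01), liver (-1.13) and adipocytes (-0.61). The part of these cell types in the Slc7a12 result was not tested.

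Slc38a4, a sodium-coupled carrier of neutral amino acids known for its abundance in liver, had the lowest difference of the list. Its levels were -3.24, -4.32 and -3.27 on the Bailing Capsule arrays, against -2.60, -2.31 and -2.53 on the diabetic arrays. Bailing Capsule replicate 2 lay lowest and the groups did not overlap. The log2 difference was -1.13 (SE 0.32, 95% interval -1.85 to -0.41), and it did not pass the test (limma adjusted p = 0.284). Over the 18 alternatives the difference ran from -1.31 to -0.39, the last with normexp background correction, and was negative in each. Since the groups did not overlap, the sign could not turn when arrays were left out. The 7 tested liver markers also had negative differences, with none called and a median of -1.13. Groups did not overlap for 5 of the 7, against 11.6% of all features with a value on every array. Their summed levels were 17.1 to 40.3 in Bailing Capsule kidneys and 22.2 to 51.7 in diabetic kidneys. These sums were mostly the level of the brightest marker, Tf. Of the other liver markers Ahsg and Apoa1 were not well above background on any array. The part of these markers in the Slc38a4 value was not tested.

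The other supply carriers lay closer to 0 and were not called. Slc38a2, the sodium-coupled carrier that amino acid starvation and hypertonicity induce in cultured cells, had levels of 2.63, 2.85 and 2.86 on the Bailing Capsule arrays, against 2.60, 2.71 and 2.27 on the diabetic arrays. The groups overlapped narrowly, and the log2 difference was 0.25 (95% interval -0.30 to 0.81). Slc7a11, the light chain of the cystine-glutamate exchanger, had levels of -4.38, -5.01 and -5.15 on the Bailing Capsule arrays, against -4.85, -4.13 and -4.26 on the diabetic arrays, a difference of -0.43. Its groups overlapped, since diabetic replicate 1 lay among the Bailing Capsule values. The exchanger of neutral amino acids and glutamine Slc1a5 differed by -0.29, and the glutamate carrier Slc1a3 by -0.08 with the widest interval of the list, -1.07 to 0.91. The sign of Slc1a3 turned in the deposited values, to 0.0056.

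Of 9 tested luminal carriers, 8 had a negative difference and none was called. The peptide carriers gave the largest differences among them, in opposite directions. Slc15a1, the low-affinity, high-capacity peptide carrier of intestine and early proximal tubule, had levels of -0.12, -0.23 and -0.13 on the Bailing Capsule arrays, against 0.16, 0.87 and 0.19 on the diabetic arrays. The groups did not overlap, and diabetic replicate 2 stood well above the other diabetic arrays. The log2 difference was -0.57 (SE 0.27, limma adjusted p = 0.699), and without diabetic replicate 2 it was -0.34. A further kept probe gave -0.15, and another was well above background on 1 array of each group.

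Slc15a2, the high-affinity peptide carrier of the later proximal tubule, had levels of -0.41, 0.52 and 0.03 on the Bailing Capsule arrays, against -0.49, -0.42 and -0.48 on the diabetic arrays. The diabetic arrays lay close together, Bailing Capsule replicate 1 lay just above them, and the groups did not overlap. The log2 difference was 0.51 (SE 0.28, limma adjusted p = 0.789).

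**Figure D3:**
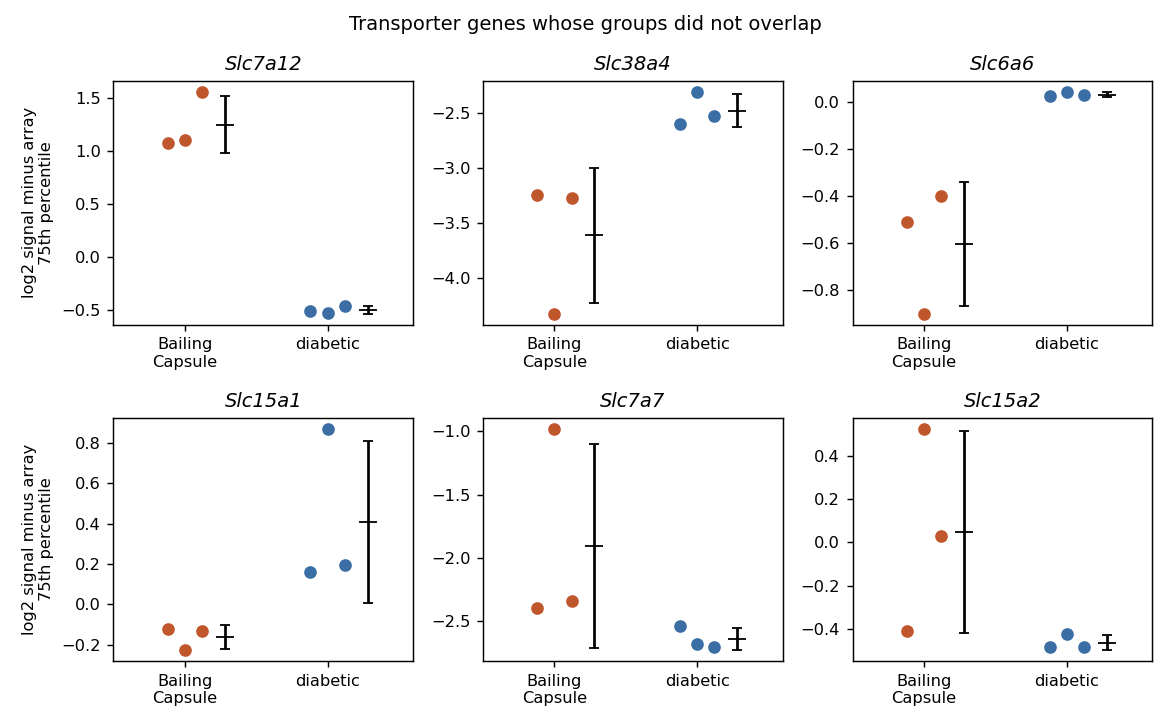
Levels on each array (log2 signal minus the array's 75th percentile) of the 6 transporter genes whose groups did not overlap, with Bailing Capsule on the left and diabetic on the right of each panel and the mean ± SD of 3 arrays beside the points. The y axes differ between panels. In Slc7a12 the gap between the groups exceeds the spread in either, while in Slc7a7 all but the highest Bailing Capsule array lie close to the diabetic arrays, and in Slc15a2 the lowest one does.

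Slc1a1, the luminal carrier of glutamate and aspartate, had levels of 3.30, 2.48 and 3.07 on the Bailing Capsule arrays, against 3.65, 3.32 and 2.87 on the diabetic arrays. The groups overlapped, and the log2 difference was -0.33 (95% interval -1.02 to 0.36). Slc6a19, the main luminal sodium-coupled carrier of neutral amino acids and the gene of Hartnup disorder, had levels of 0.91, 1.09 and 0.67 on the Bailing Capsule arrays, against 0.82, 1.74 and 0.997 on the diabetic arrays. Diabetic replicate 2 was the highest of the 6 arrays, and the other 5 overlapped. The log2 difference of Slc6a19 was -0.30 (95% interval -0.96 to 0.37).

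Slc3a1 and Slc7a9, the heavy and light chains of the luminal cystine and dibasic amino acid exchanger and the genes of cystinuria, overlapped between the groups. Slc3a1 had levels of 7.38, 6.34 and 6.71 on the Bailing Capsule arrays, against 6.72, 7.25 and 6.98 on the diabetic arrays, a log2 difference of -0.17 (95% interval -0.87 to 0.52). Slc7a9 had levels of 5.10, 4.78 and 4.67 on the Bailing Capsule arrays, against 4.39, 5.50 and 4.90 on the diabetic arrays, a difference of -0.08 (95% interval -0.78 to 0.62). For Slc3a1 the highest array was Bailing Capsule replicate 1 and the lowest Bailing Capsule replicate 2. Slc7a13, another light chain that pairs with the product of Slc3a1 and carries aspartate, glutamate and cystine in mouse and human, differed by -0.07.

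Slc6a20, the carrier of proline and other imino acids, differed by -0.11, and Slc6a18, a neutral amino acid carrier of the later proximal tubule, by -0.08. Slc6a18 varied little, with SDs of 0.08 in Bailing Capsule kidneys and 0.08 in diabetic kidneys, and its second probe gave -0.10. The signs of Slc3a1, Slc7a9, Slc7a13 and Slc6a18 turned with quantile normalization and in the deposited values, where they were 0.02 to 0.24. No direction is therefore given for these genes. The proximal tubule markers, of which Slc7a13 is also one, had 17 of 20 negative differences, none called, and a median of -0.33, and their summed levels were 756 to 1475 in Bailing Capsule kidneys and 949 to 1563 in diabetic kidneys. With slide as a block their median was -0.01. Their part in the luminal values was not tested.

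Of 7 tested basolateral and exchange carriers, 3 had a positive difference, 4 a negative one, and none was called. Slc7a7, the light chain that exports dibasic amino acids in exchange for neutral ones and the gene of lysinuric protein intolerance, had levels of -2.40, -0.98 and -2.34 on the Bailing Capsule arrays, against -2.54, -2.68 and -2.71 on the diabetic arrays. Bailing Capsule replicate 2 stood far above the other arrays, and the remaining Bailing Capsule arrays lay just above the diabetic ones. The log2 difference was 0.74 (SE 0.37, limma adjusted p = 0.732), and without Bailing Capsule replicate 2 it was 0.27. Slc3a2, the heavy chain that Slc7a7 pairs with, had levels of 0.14, 1.43 and 0.19 on the Bailing Capsule arrays, against 0.12, 0.72 and 0.22 on the diabetic arrays. The same Bailing Capsule array was the highest, the groups overlapped, and the difference of 0.24 became -0.19 without it.

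Slc16a10, the basolateral facilitator of aromatic amino acids, had levels of -0.91, -0.66 and -0.91 on the Bailing Capsule arrays, against -0.66, 0.09 and -0.61 on the diabetic arrays. The groups overlapped only in that Bailing Capsule replicate 2 lay just above diabetic replicate 1, and the log2 difference was -0.43 (SE 0.28, limma adjusted p = 0.860). Slc7a8, the basolateral light chain for neutral amino acids, had levels of 2.69, 3.16 and 2.51 on the Bailing Capsule arrays, against 2.61, 3.37 and 2.75 on the diabetic arrays, a difference of -0.12. Slc38a3, the glutamine carrier that feeds ammonia formation in acidosis, had levels of -1.77, -1.29 and -1.92 on the Bailing Capsule arrays, against -1.62, -1.15 and -2.03 on the diabetic arrays, a difference of -0.06. In Slc7a8 the ranges of the groups overlapped, and in Slc38a3 the diabetic arrays spanned the Bailing Capsule ones. Slc7a6, a light chain of the same exchange type as Slc7a7, differed by 0.25. Slc43a2, a facilitator of branched-chain and other neutral amino acids, differed by -0.0053, and its other probe gave -0.20. The signs of Slc7a8 and Slc43a2 turned in the deposited values, to 0.0559 and 0.0260, so no direction is given for them.

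All 5 carriers of taurine, betaine, creatine and glycine were tested, and none was called. Slc6a6, the taurine transporter, had levels of -0.51, -0.90 and -0.40 on the Bailing Capsule arrays, against 0.02, 0.04 and 0.03 on the diabetic arrays. The diabetic arrays were nearly equal (SD 0.00937), and every Bailing Capsule array lay below them. The probe of Slc6a6 had 1 spot per array. Where probes had repeated spots, their median coefficient of variation within a diabetic array was 3.66% to 5.18%. The diabetic SD of Slc6a6 is thus below the usual spot variation, and no tightness of the diabetic group is read from it. The log2 difference was -0.63 (SE 0.25, 95% interval -1.19 to -0.08), with a limma adjusted p of 0.545. The unadjusted intervals of Slc7a12, Slc38a4 and Slc6a6 were the ones in the list that did not hold 0.

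Slc6a13, a basolateral carrier of GABA, betaine and taurine, had levels of -2.57, -1.39 and -2.25 on the Bailing Capsule arrays, against -2.79, -2.30 and -2.64 on the diabetic arrays, a log2 difference of 0.51 with overlapping groups (limma adjusted p = 0.859). Slc6a9, a glycine transporter, had levels of -3.94, -3.99 and -4.38 on the Bailing Capsule arrays, against -4.47, -2.90 and -3.46 on the diabetic arrays. The diabetic arrays spanned the Bailing Capsule ones, and the difference of -0.49 was 0.37 with slide as a block. Slc6a8, the creatine transporter, differed by -0.25, and Slc6a12, the betaine carrier that hypertonicity induces in the renal medulla, by 0.01. Neither kept its sign under all scalings: Slc6a8 was 0.0140 in the deposited values and Slc6a12 was -0.0353 with normexp.

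**Figure D4:**
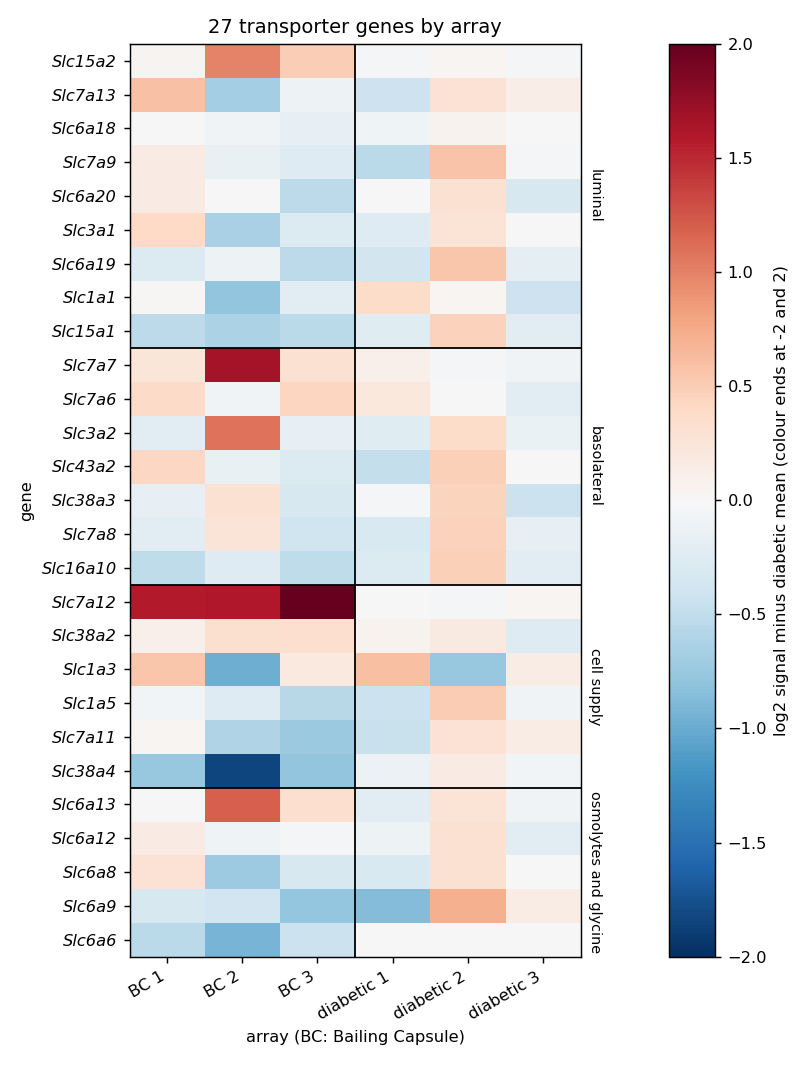
Level of each of the 27 tested transporter genes on each array as a difference from the mean of the diabetic arrays (log2; red higher, blue lower), with Bailing Capsule (BC) arrays left of diabetic arrays and genes grouped by role. Slc7a12 is red on all 3 Bailing Capsule arrays, Slc38a4 is blue on all 3, and most genes on the diabetic replicate 2 array are redder than on the other diabetic arrays.

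Within a group many genes shared their highest or lowest array. Diabetic replicate 2 had the highest diabetic level for 22 of the 27 genes, or 81.5%, and diabetic replicate 1 the lowest for 18, or 66.7%. The same shares over all features were 67.7% and 57.6%. Among Bailing Capsule arrays replicate 1 was highest for 15 genes, or 55.6%, against 55.0% of all features. Replicate 3 was lowest for 11, or 40.7%, against 26.4% of all features, and replicate 2 was lowest for 10, or 37.0%, against 44.8%. Slc3a1, Slc6a8, Slc7a13, Slc15a1 and Slc38a4 shared one order of arrays within each group. In these genes Bailing Capsule replicate 1 was highest and replicate 2 lowest, and diabetic replicate 2 was highest and replicate 1 lowest. The markers Lrp2, Slc34a1 and Umod, outside the list, had this order too, and its share over all features was not counted. The median SD over the 27 genes was 0.33 in Bailing Capsule kidneys and 0.32 in diabetic kidneys, against 0.34 and 0.28 over all features.

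Diabetic replicate 1 was also the one diabetic array on slide 1. With slide as a block, the median difference over all features was 0.09, against -0.09 without it, and the median over the 27 genes was also 0.09. The sign of 11 of the 27 genes turned. All 6 genes with groups that did not overlap kept their sign, with blocked differences of 1.76 for Slc7a12, -1.01 for Slc38a4, -0.63 for Slc6a6, -0.32 for Slc15a1, 0.63 for Slc7a7 and 0.53 for Slc15a2, but this sign is fixed in advance where every diabetic array lies on one side. The blocked difference of Slc1a1 was -0.70 and that of Slc1a3 was -0.69, both further below 0 than without the block.

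**Figure D5:**
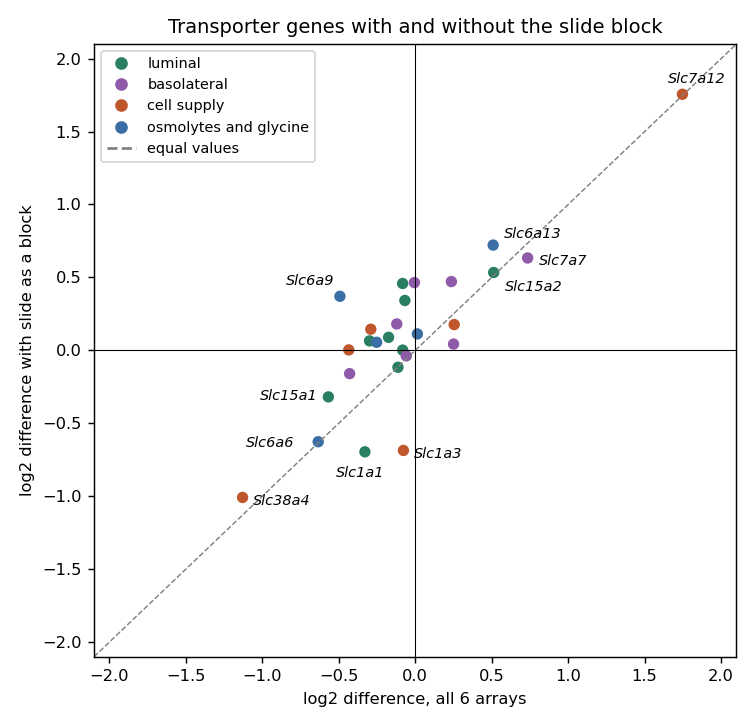
Log2 difference of the 27 tested transporter genes, Bailing Capsule minus diabetic, on all 6 arrays (x axis) and with slide as a block (y axis), coloured by role, with the dashed line at equal values. Slc7a12 and Slc38a4 lie near the line at its ends, and 11 genes lie in the quadrants where the sign turned.

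For 7 listed genes no probe passed the filter, and no comparison is made for them. Slc7a5, the light chain for large neutral amino acids of dividing cells, Slc1a4, a carrier of alanine, serine and cysteine, Slc7a2, a cationic amino acid carrier, Slc36a1, a proton-coupled carrier of small amino acids, and Slc43a1, a facilitator of branched-chain amino acids, were not well above background on any array. Slc36a2, a second proton-coupled carrier, was well above background on diabetic replicate 1 alone, and Slc38a1, a sodium-coupled glutamine carrier, on Bailing Capsule replicate 2 alone. Slc7a1, the main carrier of cationic amino acids in most cells, matched no probe and was not analysed here.

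Genes around the transporters were described from further lists, in none of which a gene was called. Of 25 other amino acid and peptide transporter names, 7 were tested, with a median log2 difference of -0.05. The mitochondrial glutamate carrier Slc25a22 was the lowest, at 1.53 and 1.44 on Bailing Capsule replicates 1 and 3 and 2.92, 2.46 and 2.25 in diabetic kidneys. It had no value on Bailing Capsule replicate 2 and differed by -1.06 without it (limma adjusted p = 0.308). Slc36a4 differed by -0.38 and Slc6a17 by 0.35.

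Of 8 tested transporter partners and scaffolds the median was 0.09. Cltrn, or collectrin, which brings Slc6a19 to the brush border, differed by -0.40. The kinase gene Sgk1 differed by 0.48. All 15 genes of a list of brush border peptidases and related enzymes were tested. Not all of these enzymes act at the brush border. There were 8 positive and 7 negative differences, with a median of 0.01. Mep1b, the meprin beta subunit, had levels of 5.13, 5.02 and 5.59 on the Bailing Capsule arrays, against 5.92, 6.09 and 5.84 on the diabetic arrays. Its groups did not overlap, and the difference was -0.71 (limma adjusted p = 0.483). Mme, or neprilysin, differed by -0.50 and the aminoacylase gene Acy3 by -0.49.

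Of 24 tested genes of the amino acid response and amino acid sensing, 11 had a positive difference and 13 a negative one, with a median of -0.08. Castor2, a paralogue of the arginine sensor Castor1, was well above background on all 3 Bailing Capsule arrays and on no diabetic array. It passed the filter through the Bailing Capsule group alone and did not pass the test, with mean levels of -4.89 on the Bailing Capsule arrays and -6.20 on the diabetic arrays and a measured difference of 1.31 (limma adjusted p = 0.222). With the diabetic level put no lower than the dimmest well-above-background signal of any probe on each array, the ratio was 1.40-fold. That floor is not specific to the Castor2 probe, so the ratio is not a lower bound. Ddit4, an inhibitor of mTOR complex signalling, differed by 0.85 (limma adjusted p = 0.604), and Cebpb, a transcription factor of the response, by -0.64. Atf4, its main transcription factor, differed by 0.09, and its target asparagine synthetase, Asns, by 0.10. These 2 genes lie outside the rule for naming and were chosen after their values were seen.

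Of 8 tested osmotic response genes, 5 had a positive difference, with a median of 0.16. The water channel gene Aqp2 differed by -0.48, Pla2g6 by 0.39 and the aldose reductase gene Akr1b1, which makes the osmolyte sorbitol, by 0.49. None of the 3 passed the test.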

How the data were processed

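Per the file headers, spots were read by Agilent's Feature Extraction, version 11.0.1.1, and each has an intensity from which background was subtracted. Arrays were not scaled to each other in the authors' scanner files. A deposited table of log2 values served as an alternative only. Its columns share a median of 5.05 and correlate with their own arrays at 0.983 to 0.994, and how the authors made it is not given in the sources used here.

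Control spots (1377 per array) and outlier spots (597 to 1091) were left out, and no spot was saturated. Spots of a probe were averaged as log2 processed signal less the array's 75th percentile. A probe passed the filter if, in 1 group or both, at least 50% of its spots were well above background on each of the 3 arrays. A gene was read from its passing probe with the most values per group, and from the brightest of these where probes tied. Accessions were named through a RefSeq gene table of GRCr8, which named 18005 of 30367 probes. Slc6a20 was matched as an older symbol. The array's own annotation uses the older build rn4, so no probe coordinates are given. Of the 17892 features tested, 10633 had names, and 469 had fewer than 6 values.

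The comparison used the lmFit and eBayes functions of limma 3.58.1 (R 4.3.3), with Benjamini-Hochberg adjustment over all features, which called 57, 23 higher and 34 lower. The test was also run on simulated data, with the outcome not reported here. Levels on each array are given for the 12 genes with the smallest p and for 12 listed genes, and for each further list the 3 genes with the smallest p are named, except 1 that is not reported here. The members, lists and motifs were chosen with earlier results of these data known. Replicate numbers are shared between the groups, but deviations of same-numbered arrays correlated at -0.18, -0.14 and 0.02, so the numbers were not taken to pair samples. Alternatives covered scaling, normexp (offset 50) on the median spot signal, the deposited values, the filter, probes per gene, slide, a replicate block, the variance model and leaving out each array. The number of arrays limits the precision.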

Additional observations from a re-analysis of the deposited data

How the results depend on the processing

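Of 486 values of the 27 genes under 18 alternatives, 418 kept their direction and side of the threshold, 60 turned sign, 8 lost a call and 0 gained one. Slc7a12 kept its sign in all 18 and was called in 10. Its groups did not overlap, so leaving out arrays or blocking by slide or replicate could not turn the sign. Nor could the filter or the probes per gene, since Slc7a12 had 1 probe, or the variance model, which changes the error only. Its 8 lost calls were with no filter (1.75, adjusted p = 0.129), slide as a block (1.76, 0.117), within slide 1 (1.76, 0.416), the replicate block (1.75, 0.171) and without Bailing Capsule replicate 2 (1.82, 0.0522), Bailing Capsule replicate 3 (1.59, 0.120), diabetic replicate 2 (1.73, 0.105) or diabetic replicate 3 (1.77, 0.114). Leaving out arrays gave 1.59 to 1.83. In these 8 settings 0 transporter genes were called, so the count ran from 0 to 1 when arrays were left out. The replicate block called 6 features of all, and its numbers were not taken to pair the samples. Of all features, 57 were called as reported, 12 with normexp, 6 with no filter, 9 within slide 1 and 17 to 195 when an array was left out (without Bailing Capsule replicates 1, 2 and 3, 143, 28 and 33; without diabetic replicates 1, 2 and 3, 195, 17 and 18). The share called higher was 40.4% as reported, 57.4% of 47 in the deposited values, 71.8% of 39 with slide as a block and 16.7% of 6 with no filter. Quantile normalization, median scaling and the deposited values gave medians over all features of -0.04, -0.06 and 0.0072, against -0.09 as reported.

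The sign of uncalled genes turned as follows, in log2 differences. With slide as a block and within slide 1 the values were 0.15 for Slc1a5, 0.0896 for Slc3a1, 0.46 for Slc43a2, 0.0020 for Slc6a18, 0.0652 for Slc6a19, 0.0557 for Slc6a8, 0.37 for Slc6a9, 0.0034 for Slc7a11, 0.34 for Slc7a13, 0.18 for Slc7a8 and 0.46 for Slc7a9. In the deposited values they were 0.0056 for Slc1a3, 0.12 for Slc3a1, 0.0260 for Slc43a2, 0.0782 for Slc6a18, 0.0140 for Slc6a8, 0.24 for Slc7a13, 0.0559 for Slc7a8 and 0.15 for Slc7a9. Quantile normalization gave 0.11 for Slc3a1, 0.0214 for Slc6a18, 0.23 for Slc7a13, 0.0023 for Slc7a8 and 0.10 for Slc7a9, and normexp 0.0875 for Slc3a1, 0.19 for Slc7a13, 0.10 for Slc7a9 and -0.0353 for Slc6a12. Median scaling gave 0.0241 for Slc43a2. Leaving out arrays gave -0.45 to 0.37 for Slc1a3, -0.27 to 0.17 for Slc38a3, -0.46 to 0.0601 for Slc3a1, -0.19 to 0.46 for Slc3a2, -0.24 to 0.23 for Slc43a2, -0.0899 to 0.17 for Slc6a12, -0.27 to 0.0915 for Slc6a20, -0.40 to 0.24 for Slc7a13, -0.31 to 0.11 for Slc7a8 and -0.35 to 0.20 for Slc7a9. The cause was not tested.

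With slide as a block and within slide 1 the list medians were 0.33 for other transporters, 0.17 for peptidases and 0.16 for amino acid response genes, and with normexp that of peptidases was -0.0862. Leaving out arrays gave -0.24 to 0.11 for peptidases, -0.12 to 0.20 for partners and scaffolds and -0.0045 to 0.25 for osmotic response genes.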
